A study of Mus musculus with 16 samples.

Results

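The subunits of oxidative phosphorylation were described in bulk RNA-seq of mouse skin cells, with each gene assigned to its complex and to the genome that encodes it. All protein-coding rows of the count table were taken whose symbol begins with Nduf followed by a, b, c, s or v and a digit, with Uqc, Cox4 to Cox8 or Atp5, or with mt-Nd, mt-Co, mt-Cytb or mt-Atp, together with Sdha, Sdhb, Sdhc and Sdhd. Of 113 rows whose symbol matched, 101 were protein-coding, out of 55487 genes in the table. They comprise 88 nuclear-encoded rows, with 37 in complex I, 4 in complex II, 11 in complex III, 18 in complex IV and 18 in complex V. The other 13 rows lie on the mitochondrial chromosome, with 7 in complex I, 1 in complex III, 3 in complex IV and 2 in complex V. The rule by symbol takes in the complex III assembly factors Uqcc1, Uqcc2 and Uqcc3 and the supercomplex factor Cox7a2l. It leaves out subunits such as Cyc1, the cytochrome c1 of complex III, and Ndufab1 of complex I. Ndufa4, named for complex I and now placed in complex IV, was kept with its symbol.

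Skin was exposed to hypobaric pressure, which stretches it, and cells were taken 6 h later. Unstretched skin of the matching area served as control. Cells were separated by flow sorting on CD45, the pan-leukocyte surface phosphatase, into CD45+ cells (immune) and CD45- cells (stromal). Each of the 4 groups held 4 libraries: stromal control 1 to 4, stromal stretched 5 to 8, immune control 3 to 6, and immune stretched 1, 2, 7 and 8. The labels give the tissue, the treatment and the fraction, and they give no strain, genotype, age or sex. Nothing in them says which libraries came from separate animals, and each p-value here reflects only how far these libraries differ among themselves, which may be technical.

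Oxidative phosphorylation passes electrons from NADH through complex I and from succinate through complex II to ubiquinone, then through complex III and cytochrome c to complex IV, where oxygen is reduced. Complexes I, III and IV pump protons across the inner mitochondrial membrane, and complex V uses their return to make ATP. All complexes except complex II combine a few subunits encoded in mitochondrial DNA with many nuclear-encoded subunits that are translated in the cytosol and imported, so their assembly draws on both genomes.

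Ptprc, which encodes CD45, checked the sort. Its level was between 0.06407 and 3.368 TMM-scaled CPM, that is reads scaled to library size, in the 8 stromal libraries and between 218.5 and 699.0 in the 8 immune libraries, with no overlap. Summed markers of fibroblasts reached 40630 to 61560 CPM in the stromal and 1472 to 10010 CPM in the immune libraries. Total counts per library were 13563586 to 20467010 in stromal control, 21955174 to 26944965 in stromal stretched, 2645421 to 6662268 in immune control and 7018743 to 20095580 in immune stretched, so the stretched libraries were deeper in both fractions. Some libraries stood apart. Immune control 4, stromal stretched 7 and stromal stretched 8 held 6209, 423.7 and 207.6 CPM on olfactory and vomeronasal receptor genes, against 17.96 to 69.86 CPM in the other libraries, and at least 1 read on 32977 to 35821 genes, against 20429 to 25955. Immune stretched 2 held 47670 CPM on neutrophil markers, against 142.9 to 9780 CPM in the other immune libraries. The counts of members called are given with and without these libraries.

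Of the 101 rows, 1 had no read in any library, a second gene ID for Atp5o. The filter on low counts kept 96 members in the comparison of stromal groups, leaving out that ID, mt-Nd4l, mt-Atp8, and the complex IV isoforms Cox7b2 and Cox8c. Annotated copies of part of the mitochondrial genome lie on chromosome 1. Of the 13 mitochondrially encoded transcripts, 6 had at least 50% of their length in another annotated transcript at 98% identity or more. The genes nearly covered by a copy, mt-Nd3, mt-Nd4l, mt-Co2, mt-Co3 and mt-Atp6, held 680, 11, 3382, 4282 and 3261 reads over all libraries. Among genes without such an annotated copy or with a partial one, mt-Cytb held 293297 reads, mt-Co1 245557 and mt-Nd1 223389. For mt-Atp8, the shortest, with 80 reads, no copy was found, but only annotated transcripts were searched. Sequence between the annotated copies of mt-Atp6 (chr1:24613974-24614651) and mt-Co2 (chr1:24614885-24615565) was not searched, so a copy of mt-Atp8 may have been missed. Whether reads were lost to the copies was not tested. The 5′ end of mt-Nd3 (GRCm38, chrM:9459-9806, plus strand) and of its pseudogene copy Gm28438 (chr1:24612775-24613119, minus strand) are printed from GENCODE M21 transcripts to show how alike the sequences are, with the only differing base of 345 aligned bases in capitals, T3C counted from the mt-Nd3 5′ end.
mt-Nd3: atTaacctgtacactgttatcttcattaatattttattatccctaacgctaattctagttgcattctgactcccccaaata
Gm28438: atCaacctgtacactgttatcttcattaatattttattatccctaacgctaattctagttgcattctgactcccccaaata
Levels of these covered genes are therefore uncertain, and they are used only between groups. Of the 88 nuclear-encoded rows, 9 had at least 50% of their transcript in such copies, Atp5g2 among them. The strand setting of the counting is not given in the sources used here, so reads of mt-Nd6, the light-strand message, cannot be told apart from antisense reads of the heavy strand.

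Taken by their share of each library, the nuclear-encoded messages were lower in stretched stromal cells. Their summed level was 14950, 16560, 16980 and 10540 CPM in stromal control 1 to 4 and 10520, 9490, 6834 and 10080 CPM in stromal stretched 5 to 8. The stretched libraries all lay below the controls, with the highest stretched library just under the lowest control. The group means were 14760 ± 2943 and 9230 ± 1651 CPM (SD, n = 4), a ratio of 0.625. In immune cells the sum was 21250, 14210, 15090 and 19320 CPM in controls 3 to 6 and 14130, 11930, 15130 and 11100 CPM in stretched 1, 2, 7 and 8. The immune groups overlapped, with means of 17470 ± 3369 and 13070 ± 1874 CPM (SD, n = 4), a ratio of 0.748. With TMM scaling the immune means were 16000 ± 5220 and 14960 ± 2352 CPM, a ratio of 0.935, and immune control 4 stood at 8629 CPM. The immune difference thus depended on the scaling, while the stromal ratio was 0.576 with TMM scaling. In bulk samples fewer cells of a type and less RNA per cell cannot be told apart.

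The mitochondrially encoded sum was higher in immune than in stromal libraries. It was 2810, 1608, 2236 and 1276 CPM in stromal control and 2013, 2769, 1073 and 1317 CPM in stromal stretched libraries. In immune control 3 to 6 it was 18740, 3477, 6503 and 16010 CPM, and in immune stretched 1, 2, 7 and 8 it was 9601, 10190, 11990 and 8091 CPM. On this scale every immune library exceeded every stromal library, and immune control 4 was the lowest of the immune libraries. With TMM scaling immune control 4 stood at 2111 CPM, inside the stromal range of 933.8 to 2884 CPM, and the other immune libraries at 7181 CPM or more. Immune means were 5.64 times the stromal mean in control and 5.56 times in stretched skin. The ratio of mitochondrially to nuclear-encoded reads was 0.1344 in stromal control, 0.1927 in stromal stretched, 0.5965 in immune control and 0.7638 in immune stretched cells.

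**Figure D1:**
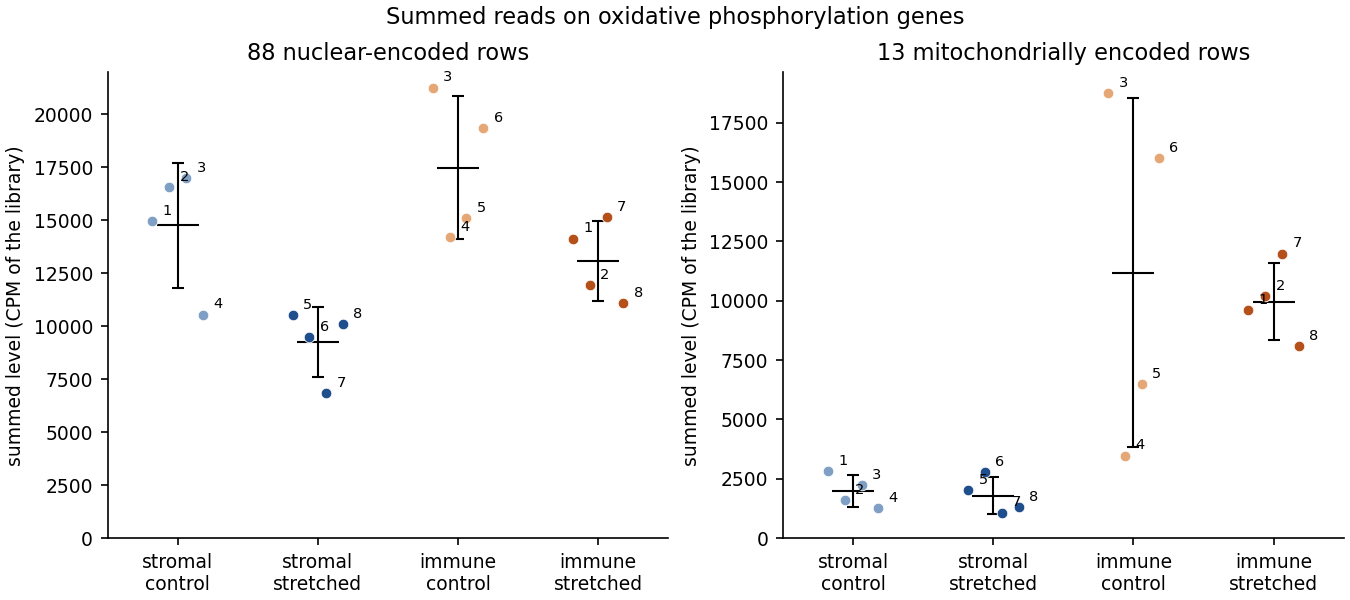
Summed level of the nuclear-encoded (left) and mitochondrially encoded (right) rows in CPM of each library's total, for 4 groups of 4 libraries; points are libraries labelled with their number, and bars give the mean with the SD. Nuclear-encoded sums in stromal stretched libraries lie at or below 10520 CPM, and on this scale mitochondrially encoded sums are higher in every immune library than in any stromal library; with TMM scaling immune control 4, at 2111 CPM, lies inside the stromal range.

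Per kilobase of transcript, Cox6b1, a small subunit that bridges the complex IV monomers, had the highest level of the nuclear-encoded complex IV members in every group, at 998.6 and 485.7 CPM per kilobase in stromal control and stretched cells and 1544 and 1297 in immune control and stretched cells. Uqcrh, the hinge protein beside cytochrome c1, had the highest level of the nuclear-encoded complex III members in all 4 groups. Among the mitochondrially encoded messages mt-Cytb, the cytochrome b core of complex III, stood at 492.4, 450.9, 2381 and 2747 CPM per kilobase in the same order of groups. Isoform use was read as each isoform's share of its set per kilobase. Ndufa4l2, a paralog of Ndufa4 known as a hypoxia-induced gene, took 12.6% and 17.3% of the Ndufa4 pair in stromal control and stretched cells and 1.35% and 4.31% in immune control and stretched cells. In stromal cells its level went from 94.4 to 68.81 CPM per kilobase and that of Ndufa4 from 625.4 to 321.1. In immune cells they went from 11.55 to 24.59 and from 783.4 to 635.3. The muscle isoforms Cox6a2, Cox7a1 and Cox8b took 1.94%, 5.99% and 3.89% of their sets in stromal control and 4.38%, 7.46% and 6.29% in stromal stretched cells, while summed skeletal muscle markers spanned 615.9 to 1564 CPM and 1020 to 2394 CPM in those groups, and 2 of the 12 such markers tested were higher in stretched cells, beside 2.05% of all genes. Levels of Cox6a2, Cox7a1 and Cox8b were 15.77, 18.64 and 20.01 CPM per kilobase in stromal control and 16.32, 13.36 and 15.28 in stromal stretched cells. The common isoforms Cox6a1, Cox7a2 and Cox8a went from 822.8, 302.3 and 496.1 to 375.3, 170.6 and 232.3. The larger shares thus came with lower common isoforms and not with higher muscle isoforms. The part of muscle RNA in these isoform shares was not tested. Cox4i2, the lung and hypoxia isoform of Cox4, stayed at 0.393% and 0.552% of its pair in stromal and 0.174% and 0.201% in immune cells. Among the genes for the membrane ring of complex V, Atp5g3 held 58.0% to 69.3% of the set and Atp5g1 23.1% to 34.8% over the groups. Cox7b2 and Cox8c, known from testis, were read mainly in the libraries with receptor-gene reads: Cox7b2 stood at 6.198 CPM in immune control 4, 0.542 in stromal stretched 7 and 0.338 in stromal stretched 8, and at 0.06407 or less elsewhere.

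In stromal cells, 36 of the 96 members tested were lower after stretching and 0 were higher, against 2.93% lower and 2.05% higher of the 16074 genes tested (edgeR's quasi-likelihood test, p adjusted by Benjamini and Hochberg, below 0.05). All 36 were nuclear-encoded, 23 of 37 in complex I, 0 of 4 in complex II, 4 of 11 in complex III, 5 of 16 in complex IV and 4 of 17 in complex V. Values were negative for 92 of the 96 members, and the median log2 fold change was −0.83 over all members and 0.01 over all genes. In TMM-scaled CPM 51 members had every stretched library below every control, against 10.2% of all genes. The smallest adjusted p was 0.0424, so the calls lay close to the threshold. No member was called, with 55 at an unadjusted p below 0.05 in the lower direction, without stromal stretched 7 and 8 (and immune control 4, which is not in this comparison), and 82 members stayed negative. Leaving out stromal control 1, 2 or 3 or stromal stretched 6, 7 or 8 singly also ended every call (61 to 68 members lower at an unadjusted p below 0.05), while 49 members were lower without stromal control 4 and 52 without stromal stretched 5. The count was 60 with DESeq2 and 68 with limma-voom, and 0 with all 16 libraries in 1 fit (61 at an unadjusted p below 0.05). How many of all genes other fits called, or had at an unadjusted p below 0.05, is not given here. Whether members exceed the share of all genes in those counts therefore cannot be read.

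The calls in complex I fell mostly on accessory subunits, which surround the catalytic core. Of 28 accessory subunits tested 21 were lower, with a median log2 fold change of −0.95, and of 7 nuclear-encoded core subunits 1 was lower, with a median of −0.74. That core subunit, Ndufs7, was singled out after its values were seen. The accessory subunits had a median transcript length of 611 bases and the core subunits 1046 bases, and calls also varied with length, as given below. Ndufa13 (GRCm38 chr8:69894180-69902558), an accessory subunit also known as GRIM-19, stood at 234.9, 263.5, 286.7 and 171.6 CPM in stromal control 1 to 4 and at 127.4, 110.7, 59.81 and 107.5 CPM in stretched 5 to 8. Every stretched library was below every control, and the log2 fold change was −1.23 ± 0.251 (SE; edgeR adjusted p = 0.0424). Ndufs5, an accessory subunit of the intermembrane side, ran from 56.45 to 78.17 CPM in control and from 20.94 to 42.83 CPM in stretched libraries, again without overlap, and fell by 1.08 on the log2 scale (SE 0.218; edgeR adjusted p = 0.0424). Ndufv3, a small subunit of the NADH-binding module, fell by 1.06 (SE 0.222; edgeR adjusted p = 0.0424). Ndufs1, the largest core subunit, was at 41.39, 53.53, 44.08 and 53.18 CPM in control and 65.47, 36.78, 50.25 and 57.7 CPM in stretched libraries, which overlap.

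Among complex III genes, the assembly factors Uqcc2 and Uqcc3 and the small subunits Uqcr11 and Uqcrb were lower. Uqcc2 (chr17:27122663-27133916) was at 199.0, 241.3, 307.4 and 134.2 CPM in control and 110.4, 100.4, 50.68 and 102.8 CPM in stretched libraries, with every stretched library below the controls and stretched 7 lowest (log2 fold change −1.27 ± 0.297, edgeR adjusted p = 0.0466). Uqcc3 ran from 44.24 to 52.22 CPM in control and from 14.48 to 29.96 CPM in stretched libraries, and fell by 1.10 (SE 0.218; edgeR adjusted p = 0.0424). Uqcr11 fell by 1.21 (SE 0.271; edgeR adjusted p = 0.0436). The core proteins Uqcrc1 and Uqcrc2 and the Rieske iron-sulfur protein gave a median of −0.31 with 0 of 3 called. In complex IV, Cox8a, Cox6a1, Cox5b, Cox6b1 and Cox7c were lower, all of them the common isoforms of small subunits around the catalytic core. Cox8a (chr19:7215153-7217616) stood at 303.3, 275.8, 304.1 and 208.2 CPM in control and 150.2, 145.8, 81.84 and 133.3 CPM in stretched libraries, without overlap (log2 fold change −1.09 ± 0.225, edgeR adjusted p = 0.0424). Cox6a1 ran from 329.5 to 552.7 CPM in control and from 131.1 to 292.1 CPM in stretched libraries (−1.13 ± 0.260, edgeR adjusted p = 0.0458). The tissue-restricted isoforms of complex IV gave 0 of 5 calls and a median of −0.48.

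In complex V the lower members were Atp5j2, Atp5h, Atp5g2 and Atp5g3, from the membrane part and stalk, and 0 of 5 subunits of the catalytic F1 part passed. Atp5j2 (chr5:145183698-145192062), the f subunit, stood at 314.2, 335.0, 354.2 and 199.6 TMM-scaled CPM in control and at 161.9, 175.2, 87.22 and 143.0 CPM in stretched libraries, all below the lowest control (log2 fold change −1.08 ± 0.255, edgeR adjusted p = 0.0466). As CPM of the library total the Atp5j2 groups overlapped, with stromal stretched 6 above stromal control 4. Atp5e, a small subunit of the central stalk, showed a wider control range, 141.1 to 417.4 CPM, and stromal control 4 lay among the stretched libraries at 79.4 to 175.1 CPM. Atp5b (chr10:128083273-128090391), the catalytic beta subunit, was at 826.5, 1104, 882.3 and 876.0 CPM in control and 1023, 654.7, 622.7 and 877.3 CPM in stretched libraries, which overlap. The 11 mitochondrially encoded members tested were all negative, from −0.72 to −0.06 with a median of −0.24, and 0 of them passed the test or had an unadjusted p below 0.05.

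**Figure D2:**
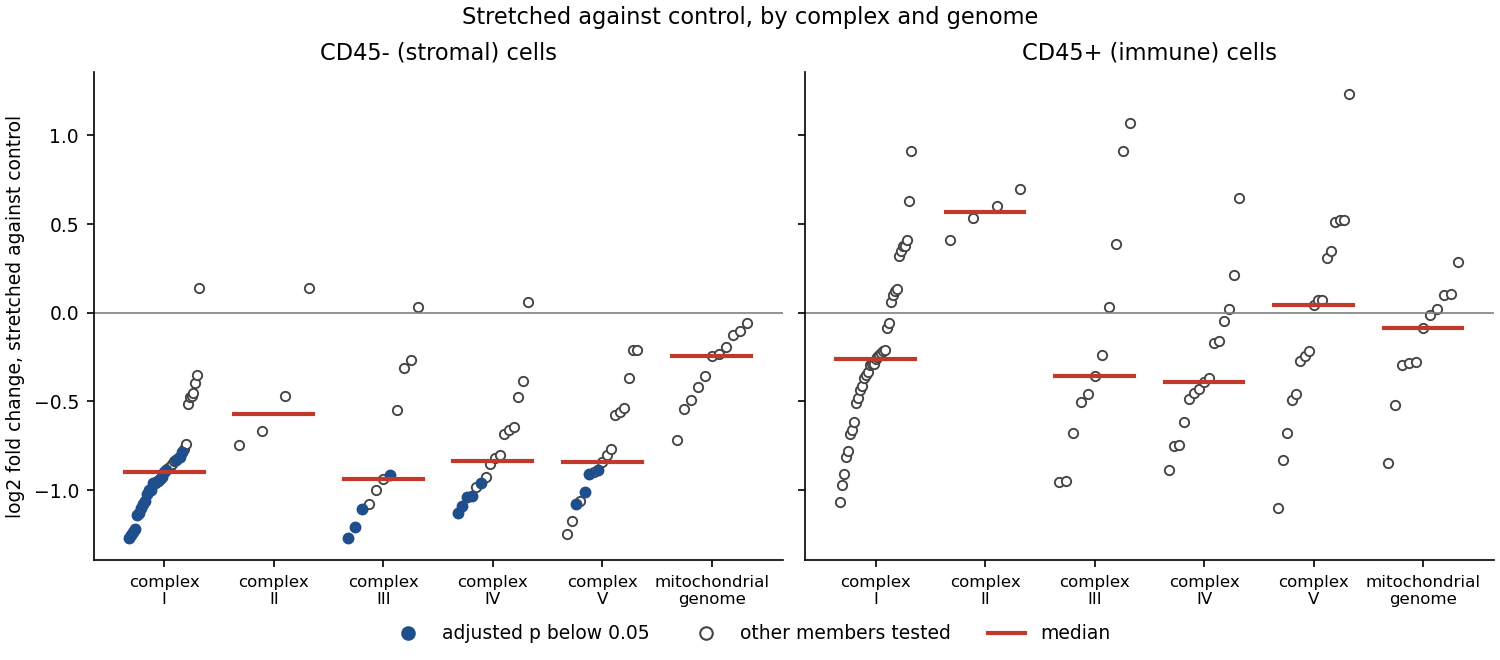
Log2 fold change of each tested member, stretched against control, in stromal (left) and immune cells (right), with nuclear-encoded members by complex and the mitochondrially encoded members last; filled points had an edgeR adjusted p below 0.05 and red bars are medians. In stromal cells the medians of complexes I, III, IV and V lie between −0.94 and −0.84, and in immune cells no member passed the test.

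Complex II, the only complex with no mitochondrially encoded subunit, had 0 of 4 members called with stretching in either fraction, with 2 negative in stromal and 1 positive in immune cells at an unadjusted p below 0.05. Sdha (chr13:74322254-74350280), the flavoprotein that oxidises succinate, was at 133.0, 159.5, 129.0 and 181.2 CPM in stromal control and 176.8, 143.3, 171.8 and 168.4 CPM in stromal stretched libraries, which overlap. Sdhb (chr4:140961203-140979193), the iron-sulfur subunit, was at 164.3, 259.3, 221.8 and 169.2 CPM in control and 152.4, 112.7, 90.12 and 127.5 CPM in stretched libraries, and Sdhd (chr9:50596357-50603812), a membrane anchor, at 143.1, 216.6, 174.4 and 221.0 CPM and 149.5, 110.7, 89.04 and 124.6 CPM. The Sdhb groups did not overlap and the Sdhd groups did. Their log2 fold changes were −0.75 ± 0.217 and −0.67 ± 0.210 (edgeR adjusted p = 0.0641 and 0.0787), and that of Sdhc, the other anchor, was −0.47 ± 0.228 (0.214). In immune cells Sdha was at 95.98, 49.58, 89.43 and 97.66 CPM in control and 120.8, 109.9, 149.4 and 158.1 CPM in stretched libraries, and Sdhd at 140.2, 63.36, 116.5 and 140.3 CPM and 197.4, 225.5, 190.5 and 158.5 CPM. Each stretched immune library was above each control for Sdha, Sdhb and Sdhd in TMM-scaled CPM, a pattern that 8.55% of all genes showed on that scale. Their log2 fold changes were 0.53 ± 0.238, 0.70 ± 0.324 and 0.60 ± 0.272, and none passed (edgeR adjusted p = 0.284, 0.296 and 0.287). As CPM of the library total the immune groups overlapped for Sdha and Sdhd. On that scale summed complex II was 464.4, 303.9, 321.7 and 484.5 in immune control 3 to 6. In immune stretched 1, 2, 7 and 8 it was 569.8, 408.5, 587.2 and 551.8, which overlaps the controls.

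**Figure D3:**
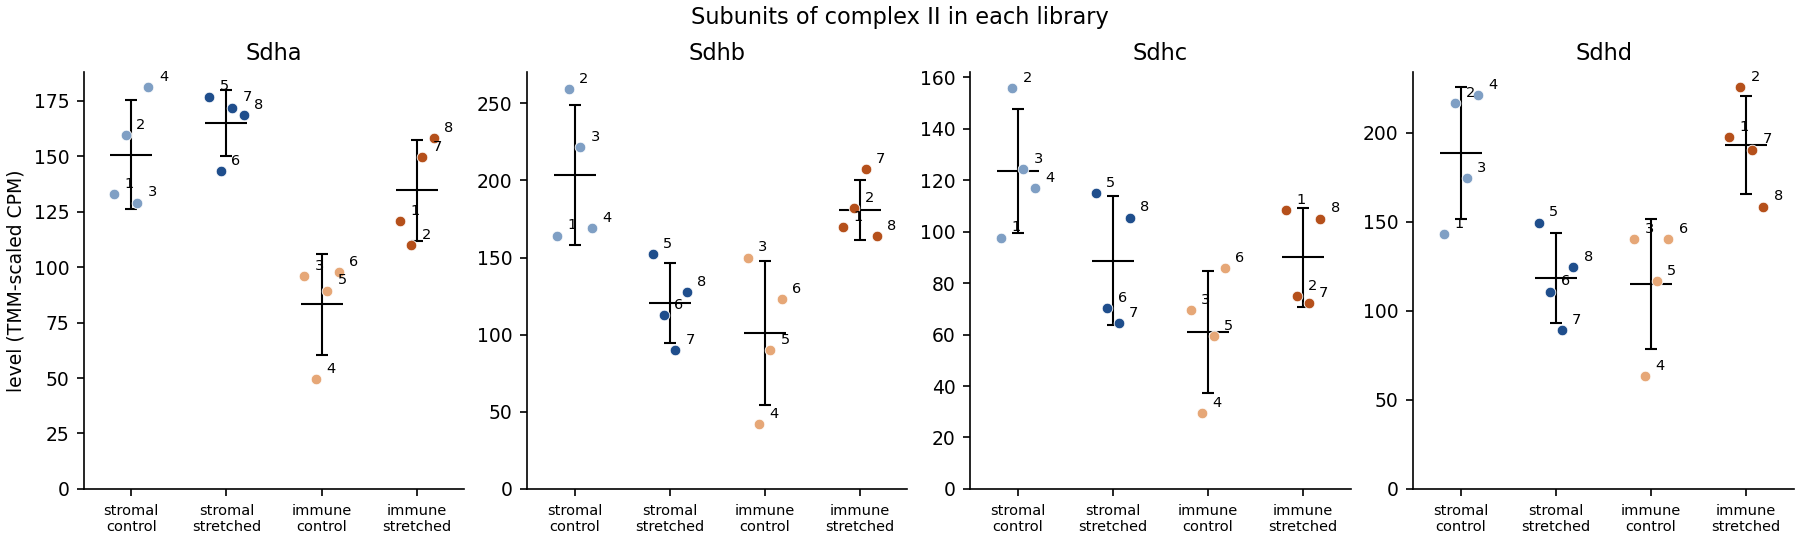
Level of the complex II genes Sdha, Sdhb, Sdhc and Sdhd in TMM-scaled CPM for 4 groups of 4 libraries; points are libraries labelled with their number, and bars give the mean with the SD. On this scale Sdha, Sdhb and Sdhd lie above all immune controls in stretched immune libraries, and Sdhb lies below all stromal controls in stretched stromal libraries. As CPM of the library total the immune groups overlap for Sdha and Sdhd.

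The stromal change varied with transcript length. Of nuclear-encoded members with a transcript of at most 1000 bases 34 of 63 were lower, 54.0%, with a median log2 fold change of −0.94. Of those over 1000 bases 2 of 22 were lower, 9.09%, with a median of −0.49; these were Ndufa13 and Ndufs4, named after their values were seen. Over all genes tested 10.8% of those up to 1000 bases and 1.26% of the longer ones were lower, so length ordered the whole table as well. Spearman's rho between length and log2 fold change was 0.573 over 85 nuclear-encoded members and 0.443 over all genes, given as a description, since the genes share libraries. After each library was corrected for smooth trends with length and GC content, the median of the nuclear-encoded members was −0.49 and 0 members were called, with 56 lower at an unadjusted p below 0.05. With a covariate for how many genes each library detected, the median was −0.51 and 0 were called, with 13 lower at an unadjusted p below 0.05. Among other lists of subunits, 35 of 94 cytosolic ribosomal protein genes (median transcript length 773 bases) and 22 of 77 mitochondrial ribosomal protein genes (1162 bases) were lower, and 1 of 38 proteasome subunits (1384 bases), beside 2.93% of all genes. Of the parts with 0 calls, the F1 part, the complex III core and Rieske subunits and complex II had median lengths of 1166, 1653 and 1186 bases. The tissue-restricted isoforms of complex IV, also with 0 calls, had a median of 435 bases. The part of transcript length in the stromal difference was not tested beyond these fits.

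**Figure D4:**
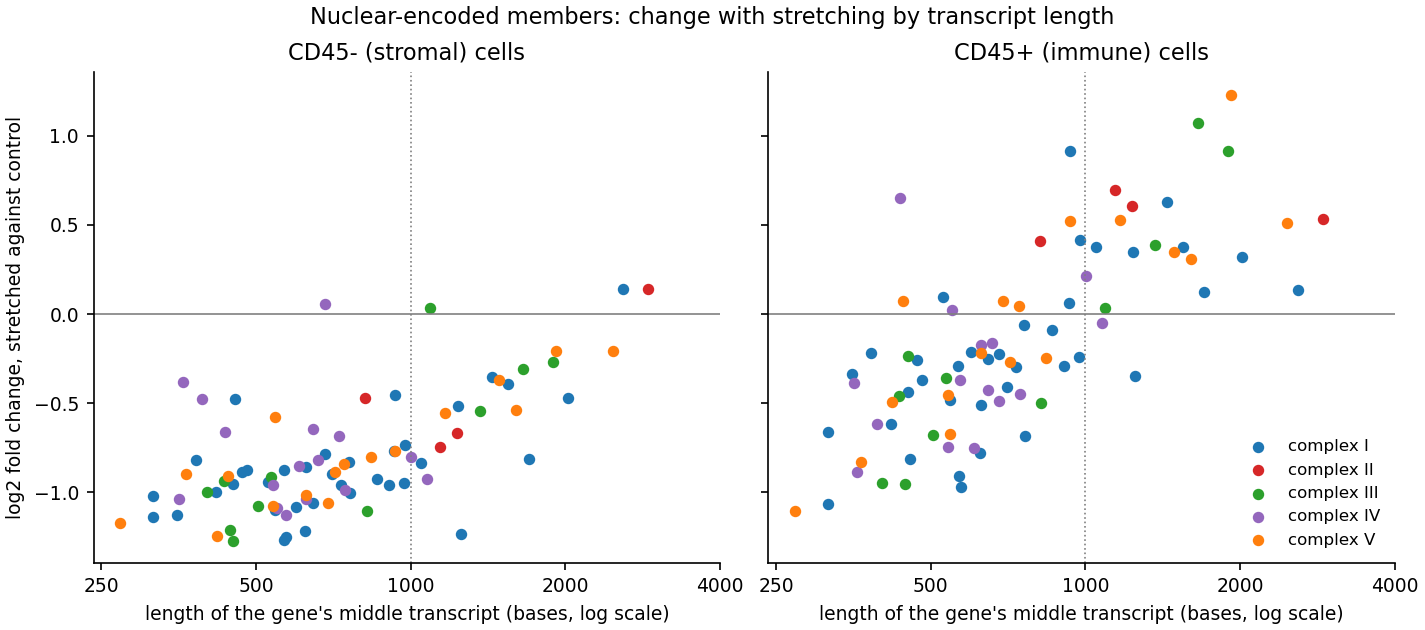
Log2 fold change of nuclear-encoded members, stretched against control, over the length of the gene's middle transcript in bases (log scale), in stromal (left) and immune cells (right); colours give the complex and the dotted line marks 1000 bases. Members over 1000 bases have a median of −0.49 in stromal and 0.38 in immune cells, and shorter members −0.94 and −0.37.

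In immune cells no member was called after stretching, and edgeR called 0.0% of the 14183 genes tested in either direction. At an unadjusted p below 0.05, 4 members were positive and 12 negative. DESeq2 called 2 members higher and 5 lower, and limma-voom 2 higher and 8 lower, without the share of all genes these methods called being given here. Values were positive for 6 of 7 nuclear-encoded complex I core subunits, 3 of 3 complex III core and Rieske subunits and 4 of 5 F1 subunits. Of 28 accessory complex I subunits 24 were negative. Atp5b was at 427.2, 111.3, 204.4 and 350.9 CPM in control and 585.2, 557.6, 867.0 and 832.0 CPM in stretched libraries, all above the highest control (log2 fold change 1.23 ± 0.383, edgeR adjusted p = 0.190). Uqcrc1 (chr9:108936633-108949623), a core protein of complex III, was at 122.2, 41.32, 65.6 and 116.8 CPM in control and 176.1, 164.5, 239.8 and 224.8 CPM in stretched libraries, again without overlap (1.07 ± 0.317, edgeR adjusted p = 0.179). For both genes immune control 4 was the lowest library on this TMM scale. As CPM of the library total both genes overlapped between the groups, with immune stretched 2 below the highest control. The TMM factors of immune stretched 2 and immune control 4 were 0.6894 and 1.647. Ndufa5 (chr6:24518666-24528013), an accessory subunit of complex I, ran from 120.3 to 260.2 CPM in control and from 67.3 to 113.6 CPM in stretched libraries, and was the only member with all stretched libraries lower, against 3.14% of genes (−1.07 ± 0.287, edgeR adjusted p = 0.162). Atp5k, the e subunit of complex V, and Uqcr11 had log2 fold changes of −1.10 ± 0.336 and −0.95 ± 0.315 (edgeR adjusted p = 0.185 and 0.201). Over members up to 1000 bases 51 of 62 were negative, with a median of −0.37, and over longer members 20 of 22 were positive, with a median of 0.38. Spearman's rho with length was 0.723 over 84 nuclear-encoded members and −0.170 over all genes. The count of negative members varied with the libraries and the model: it was 60 of 95 in the fit reported, 72 of 96 without immune control 4, 68 of 96 without immune stretched 2, 49 of 96 without immune control 3, and 30 of 97 with title numbers as a replicate block. No member was called in any of these fits, and between 2 and 9 were positive at an unadjusted p below 0.05. Negative at that level were 12 in the fit reported, 23 without immune control 4 and 18 without immune stretched 2. Without immune control 3 there were 6, and with the block 0.

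The stretch effects of the fractions were compared directly as an interaction. None of 97 members passed, and edgeR called 0.0% of the 18295 genes in either direction. The difference, immune minus stromal, was positive for 91 members, with a median of 0.82 over the nuclear-encoded and 0.30 over the mitochondrially encoded members, and 36 were positive at an unadjusted p below 0.05. DESeq2 called 7 members higher and limma-voom 16, and the share of all genes these methods called is not given here. Sdhd, Atp5d, a stalk subunit of complex V, and Sdhb had differences of 1.42 ± 0.373, 1.44 ± 0.383 and 1.59 ± 0.440 (edgeR adjusted p = 0.0775, 0.0775 and 0.0836). That of Uqcrc1 was 1.54 ± 0.434 (edgeR adjusted p = 0.0856). Without the 3 libraries with receptor-gene reads no member was called (9 positive at an unadjusted p below 0.05), 70 members were positive, and the nuclear-encoded median was 0.38.

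The mitochondrially encoded messages were higher in immune than in stromal cells. In control skin all 11 tested were called higher, with log2 fold changes from 2.05 to 3.81 and a median of 2.49, and in stretched skin all 11 were higher, from 2.25 to 3.61 with a median of 2.57. For all genes tested 26.6% were higher and 22.8% lower in control skin, and 23.9% higher and 25.1% lower in stretched skin. mt-Cytb (chrM:14145-15288) was at 773.7, 454.1, 627.9 and 397.7 CPM in stromal control 1 to 4 and at 4698, 526.8, 1816 and 3855 CPM in immune control 3 to 6. Immune control 4 lay inside the stromal range and the other immune controls above it (log2 fold change 2.34 ± 0.571, edgeR adjusted p = 0.0059). In stretched skin mt-Cytb was at 677.5, 761.8, 269.2 and 355.0 CPM in stromal and 2677, 3886, 3572 and 2434 CPM in immune libraries, without overlap (2.48 ± 0.390, edgeR adjusted p = 0.000779). mt-Nd2 (chrM:3914-4951), a proton-pumping subunit of complex I, was at 262.3, 131.4, 200.8 and 117.4 CPM in stromal and 2480, 284.2, 901.2 and 1667 CPM in immune control libraries, and it was 2.98 ± 0.575 higher on the log2 scale (edgeR adjusted p = 0.00155). In stretched skin it was 3.15 ± 0.353 higher (edgeR adjusted p = 9.55e-05).

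mt-Nd6, whose strand cannot be resolved here, had the highest log2 fold change of control skin among the mitochondrially encoded members tested, with 81.49, 35.11, 60.61 and 22.68 CPM in stromal and 1129, 177.9, 607.1 and 749.3 CPM in immune libraries and no overlap (3.81 ± 0.575, edgeR adjusted p = 0.000325). mt-Co1, the catalytic subunit of complex IV, ran from 405.6 to 761.6 CPM in stromal and from 342.7 to 3362 CPM in immune control libraries, and from 243.1 to 823.5 and 1834 to 3647 CPM in stretched skin. mt-Co3, which is nearly covered by a copy, ran from 6.177 to 14.23 CPM in stromal and from 16.3 to 85.03 CPM in immune control libraries (2.46 ± 0.470, edgeR adjusted p = 0.00144), so the direction did not differ between covered and uncovered genes. In control skin 6 of the 11 did not overlap between fractions and in stretched skin all 11, against 22.4% and 26.6% of all genes higher without overlap. All 11 stayed called in both comparisons without the libraries with receptor-gene reads. The mitochondrial ribosomal RNAs mt-Rnr1 and mt-Rnr2 summed to 1406 and 889.6 CPM in stromal control and stretched and 9071 and 4249 CPM in immune control and stretched cells, and both were higher in immune cells in each comparison.

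**Figure D5:**
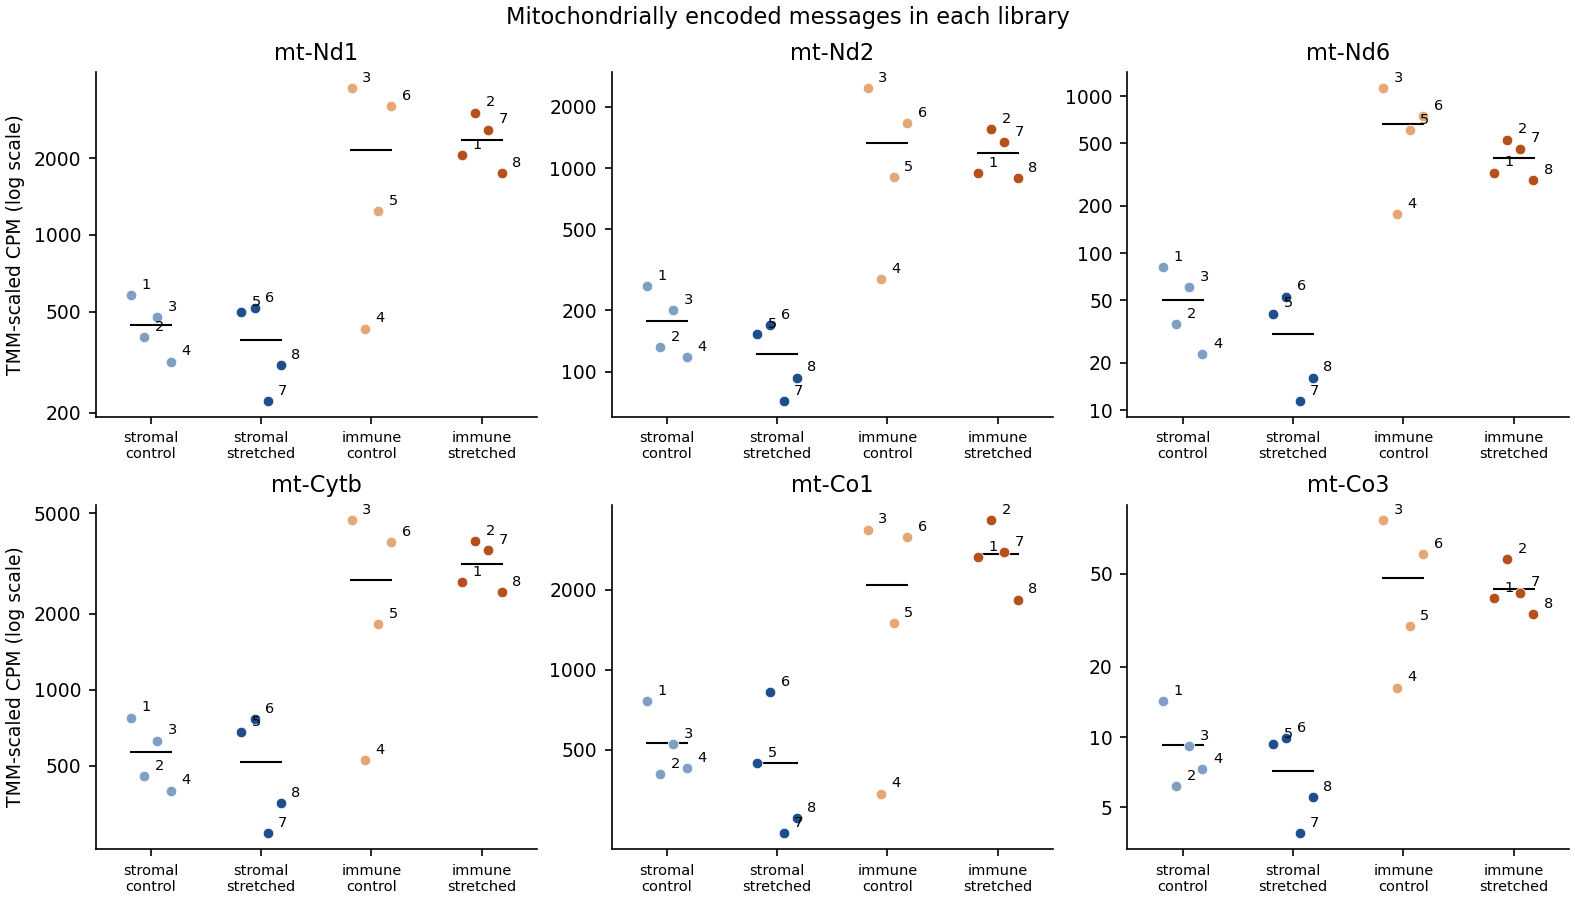
Level of 6 mitochondrially encoded messages in TMM-scaled CPM (log scale) for 4 groups of 4 libraries; points are libraries labelled with their number and bars are means. In stretched skin each immune library exceeds each stromal library for every gene drawn, and in control skin immune control 4 is the lowest immune library.

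Nuclear-encoded members split in control skin, with 12 of 85 higher and 13 lower in immune cells and a median log2 fold change of 0.10. These are fewer calls than the 26.6% higher and 22.8% lower of all genes. Without immune control 4, 18 were higher and 13 lower. Those higher were small subunits such as Atp5l (chr9:44912557-44920742), the g subunit of complex V, at 51.45, 47.3, 59.33 and 29.43 CPM in stromal and 130.5, 81.95, 155.8 and 121.1 CPM in immune libraries (1.48 ± 0.282, edgeR adjusted p = 0.00139). Cox7c and Uqcrh were also higher, by 1.23 ± 0.302 and 1.09 ± 0.265 (edgeR adjusted p = 0.00614 and 0.00577). Those lower included Atp5b, the catalytic beta subunit of complex V, at −1.67 ± 0.378 and Uqcrc1, a core protein of complex III, at −1.53 ± 0.326 (edgeR adjusted p = 0.00392 and 0.00284). For both genes every immune control library was below every stromal control. Sdha, Sdhb and Sdhc were lower too, at −0.76 ± 0.252, −0.92 ± 0.344 and −0.92 ± 0.300 (edgeR adjusted p = 0.0274, 0.0446 and 0.0251). Ndufa4l2 was at 130.8, 90.22, 104.8 and 26.84 CPM in stromal and 28.0, 5.509, 2.457 and 7.203 CPM in immune libraries, with every immune library below stromal control 1 to 3 and stromal control 4 within the immune range (edgeR adjusted p = 0.00445). Members up to 1000 bases gave 12 higher and 3 lower of 63, beside 30.2% higher and 15.2% lower of all genes of that length. Longer members gave 0 higher and 10 lower of 22, beside 25.8% and 24.4%. With the correction for length and GC the nuclear-encoded median was −0.39, with 1 nuclear-encoded member higher and 21 lower, and 7 of the 11 mitochondrially encoded members stayed higher. Without immune control 5 or without stromal control 2, 7 nuclear-encoded members were lower.

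In stretched skin 43 of 85 nuclear-encoded members were higher in immune cells and 2 lower, beside 23.9% and 25.1% of all genes, with a median of 0.66. Calls fell in each complex, with 18 of 37 higher in complex I, 1 of 4 in complex II, 6 of 11 in complex III, 9 of 16 in complex IV and 9 of 17 in complex V. Ndufa6 (chr15:82350140-82354322), an accessory complex I subunit, was at 42.46, 55.97, 32.71 and 42.05 CPM in stromal and 143.7, 162.2, 169.4 and 122.7 CPM in immune libraries, without overlap (1.66 ± 0.214, edgeR adjusted p = 0.000235). Uqcrfs1, the Rieske protein, ran from 49.51 to 82.87 CPM in stromal and from 157.8 to 180.0 CPM in immune libraries (1.19 ± 0.207, edgeR adjusted p = 0.00135). Cox8a was at 150.2, 145.8, 81.84 and 133.3 CPM in stromal and at 296.9, 516.5, 323.1 and 240.3 CPM in immune libraries, and Cox6b1 at 105.1 to 224.1 and 324.5 to 586.9 CPM, both without overlap. Atp5h, a subunit of the outer stalk, was 1.08 ± 0.250 higher (edgeR adjusted p = 0.00572), and Sdhd 0.58 ± 0.217 higher (edgeR adjusted p = 0.0487). The lower members were Ndufa4l2 (edgeR adjusted p = 0.0155) and Uqcc1, a complex III assembly factor, at −0.81 ± 0.213 (edgeR adjusted p = 0.011). The common isoforms of complex IV gave 9 of 11 calls higher and the tissue isoforms 0 of 5. Without stromal stretched 7 and 8, which had the receptor-gene reads, 7 nuclear-encoded members were higher and 2 lower, without either library alone 28 were higher, 40 without immune stretched 2, and with the correction for length and GC 5 were higher and 5 lower. This comparison and that of stretched against control share the stromal stretched libraries, so a low level there enters both.

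Genes that serve the same complexes were counted in lists by function. In stretched stromal cells 8 of 40 assembly factors were lower and 0 higher, beside 2.93% lower and 2.05% higher of all genes. Among those lower were Sdhaf4, a chaperone of Sdha, and Coa6, a copper-handling factor of complex IV, at −1.09 ± 0.203 and −0.95 ± 0.186 (edgeR adjusted p = 0.0424 for each). Pprc1, a coactivator of the PGC-1 family, rose among 12 regulators, from 25.94 to 38.12 CPM in control to 47.64 to 65.37 CPM in stretched libraries (log2 fold change 0.88 ± 0.183, edgeR adjusted p = 0.0424). Of 28 genes of mitochondrial DNA maintenance and RNA handling, Polg, the mitochondrial DNA polymerase, was the 1 called, higher by 0.82 (edgeR adjusted p = 0.0424). A single call of 28 is near the 2.05% of all genes called higher, and Pprc1 was 1 of 12. The tricarboxylic acid cycle gave 0 of 14 calls (1 positive and 1 negative at an unadjusted p below 0.05), and carriers and inner-membrane genes 0 of 10 (2 and 4). Without stromal stretched 7 and 8 no gene of these lists was called. In immune cells 0 genes of these lists were called with stretching, beside 0.0% of all genes. There 7 of 14 cycle genes were positive at an unadjusted p below 0.05, a level for which the share of all genes is not given here. Idh3b and Idh3g, subunits of isocitrate dehydrogenase in the cycle, had log2 fold changes of 1.28 and 1.25 there (edgeR adjusted p = 0.156 and 0.163). Between fractions in control skin 11 of 14 cycle genes were lower in immune cells, with a median of −1.38. Of 39 assembly factors 4 were higher and 11 lower, beside 26.6% and 22.8% of all genes, and Cox17, the copper chaperone of complex IV, was 3.71 higher on the log2 scale (edgeR adjusted p = 2.72e-05). In stretched skin 2 of 14 cycle genes were lower in immune cells, and 5 of 40 assembly factors were higher and 4 lower, beside 23.9% higher and 25.1% lower of all genes.

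Promoters were read because many nuclear-encoded members are known targets of nuclear respiratory factors. RefSeq windows (GRCm38.p6) from 250 bases before to 50 after the start matched 71 of 87 nuclear symbols, with 76 windows. The motif GCGCANGCG of NRF1 was found on either strand in 28.95% of member windows and in 6.25% of all 32851 windows, CCGGAAG of the ETS factor GABPA in 21.05% and 8.86%, AANATGGCG of YY1 in 13.16% and 2.38%, and TCAAGGTCA of the estrogen-related receptors in 2.63% and 0.42%. A match is a string of letters, not a bound site. Of 21 tested members with an NRF1 match 13 were lower in stretched stromal cells, with a median log2 fold change of −0.95, and of 49 without one 20 were lower, with a median of −0.86, so members of both kinds were among those called. The 250 bases before the start are shown for Uqcc2 (chr17:27133892-27134141, minus strand), which had the lowest log2 fold change of the members called in stromal cells, for Cox6a1 (chr5:115348959-115349208, minus strand), a common isoform that was lower, for Sdha (chr13:74350241-74350490, minus strand), which was not, and for the muscle isoform Cox8b (chr7:140900447-140900696, minus strand), with motif matches in capitals. The GCGCATGCGC of Cox6a1 matches NRF1 on both strands, and its CTTCCGG is the ETS motif on the other strand.
Uqcc2: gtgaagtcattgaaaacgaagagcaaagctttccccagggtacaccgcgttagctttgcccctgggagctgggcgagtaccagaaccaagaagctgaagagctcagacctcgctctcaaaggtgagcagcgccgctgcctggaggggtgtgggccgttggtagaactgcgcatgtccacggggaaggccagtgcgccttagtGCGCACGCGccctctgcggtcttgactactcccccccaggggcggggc
Cox6a1: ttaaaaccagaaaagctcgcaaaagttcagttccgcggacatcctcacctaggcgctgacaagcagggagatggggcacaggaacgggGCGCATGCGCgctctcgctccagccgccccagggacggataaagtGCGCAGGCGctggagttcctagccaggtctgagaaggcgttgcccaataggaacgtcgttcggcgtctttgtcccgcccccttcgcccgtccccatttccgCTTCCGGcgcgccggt
Sdha: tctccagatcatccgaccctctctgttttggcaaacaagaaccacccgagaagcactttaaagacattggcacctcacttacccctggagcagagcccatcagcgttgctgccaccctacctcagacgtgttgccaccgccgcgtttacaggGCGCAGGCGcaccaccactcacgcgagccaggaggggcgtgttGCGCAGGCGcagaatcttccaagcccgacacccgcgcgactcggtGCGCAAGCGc
Cox8b: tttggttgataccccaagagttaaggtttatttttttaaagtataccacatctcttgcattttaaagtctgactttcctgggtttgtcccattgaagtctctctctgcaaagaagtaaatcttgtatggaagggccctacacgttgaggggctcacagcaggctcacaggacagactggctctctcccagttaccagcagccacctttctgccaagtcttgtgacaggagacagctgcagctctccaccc
The window of Cox8b held none of the 4 motifs, Uqcc2 held 1 NRF1 match, and Sdha held 3 NRF1 matches although its level was not called in stromal cells.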

How the data were processed

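Libraries (SMART-Seq mRNA LP, Nextera XT) were made from sorted skin cells, per the labels' protocols. The deposited table holds the authors' raw counts of reads per gene for 16 libraries; the submitters' processing notes name FastQC 0.11.9, STAR and the build mm10. Which counter, annotation and strand setting were used is not given in the sources used here. Of 55487 gene IDs 55394 were matched to GENCODE M21 for symbols, lengths and positions; length is that of the gene's middle-length transcript.

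Each comparison used its own 8 libraries (the interaction all 16) in R 4.3.3 with edgeR 4.0.16: filterByExpr (minimum count 10, total 15), TMM factors, glmQLFit and glmQLFTest, Benjamini-Hochberg over all genes tested, threshold 0.05. SE is that of the log2 fold change. Levels are TMM-scaled CPM and sums are CPM of the library total. DESeq2 1.42.0, limma 3.58.1 (voom), other scalings, filters, covariates, offsets for length and GC and left-out libraries were alternatives. Fits were tested on simulated data. Copies were found with BLAST 2.17.0 (identity at least 98%, at least 50 bases); Python 3.11.15 and matplotlib 3.10.9 made tables and figures.

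Title numbers recur between fractions. Deviations of same-numbered libraries correlated from −0.121 to 0.162 and 1 of 8 numbers was its own best match. Numbers 1, 2, 5 and 6 carried different treatments in the fractions. Libraries were not paired, but low correlations between different cell fractions cannot show that same-numbered libraries came from separate animals. Fits with title numbers as a block are given among the alternatives. Depth is given in the report. Named are Ptprc, the mitochondrially encoded subunits, complex II, isoform sets, the highest member per complex, up to 3 members per complex with the smallest p in each comparison, and up to 4 per pathway list; genes outside this rule are named as chosen after their values were seen. Members and lists were chosen with earlier results of these data known. An item withheld for evaluation is not reported here.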

Additional observations from a re-analysis of the deposited data

Results flagged for a closer look

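A library was set aside from the other 3 of its group when its gap to the nearest of them in relation to the group's range exceeded Dixon's critical value. Of 256 groups of 4 values 13 did so, and chance does so in about 5.0% of groups. Stromal stretched 7 was lowest for the summed CPM of nuclear complex I, 1996, and of nuclear complex IV, 1151, and for the levels of Ndufa4, 92.1 CPM, Uqcc2, 50.68 CPM, and Uqcr11, 43.13 CPM. Immune control 4 was lowest for Cox6a1, 300.0 CPM, Cox6b1, 270.6 CPM, Cox7c, 240.1 CPM, and Ndufv3, 64.51 CPM. These are the libraries with reads on receptor genes; the part of those reads in the low values was not tested. Immune stretched 8 was lowest for the mitochondrially encoded complex IV sum, 1781 CPM, and for Ndufa13, 161.3 CPM. Immune stretched 7 was highest for the mitochondrially encoded complex V sum, 34.87 CPM, and stromal control 4 was lowest for Cox7a2, 121.6 CPM.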

How the results depend on the processing

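In stromal cells the 36 lower members became 60 with DESeq2, 68 with limma-voom, 56 without the filter, and 0 with all 16 libraries in 1 fit, with title numbers as a replicate block, with length and GC offsets, with the detected genes as covariate and without the libraries with receptor-gene reads; leaving out 1 library gave 0 to 52. The nuclear-encoded median was −0.49 with offsets and −0.51 with the covariate, which put the mitochondrially encoded median at 0.49. Ndufs1 turned to −0.22 with the block and −0.029 with offsets, and Sdha to −0.28 and −0.067. In immune cells DESeq2, limma-voom and the fit of 16 libraries called 2, 2 and 2 higher, and the first pair 5 and 8 lower. Between fractions in control skin 23 members higher became 9 with the block, 8 with offsets and 13 without the mitochondrial chromosome, and 13 lower became 21 with offsets and 7 to 16 with 1 library left out (7 without immune control 5 or stromal control 2); the medians with offsets were −0.39 (nuclear) and 1.41 (mitochondrial). In stretched skin 54 higher became 15 with offsets, 15 with the covariate and 18 without the receptor-read libraries, and 2 lower became 1 with 16 libraries, 0 with the block and 5 with offsets. The nuclear-encoded median there was 0.032 with offsets and 0.29 with the covariate, and the mitochondrially encoded median 3.12 with the block, 1.56 with offsets and 1.87 with the covariate. For the interaction, members higher were 7 with DESeq2, 16 with limma-voom, 1 without the filter (and 1 lower) and 0 to 5 with 1 library left out (5 without immune control 6); the nuclear-encoded median was 0.38 without the receptor-read libraries, and the mitochondrially encoded one 1.32 with the block and −0.56 without those libraries. The nuclear-encoded sum of immune stretched cells was 14960 CPM when TMM-scaled, and that of immune control cells 16000 CPM. Other scale factors moved the median of all genes in the interaction to −0.19 (RLE) and −0.24 (upper quartile), with 85 and 84 of 97 members positive. No median of the mitochondrially encoded members exists without their chromosome. Leaving out immune control 4 and immune stretched 2 together was chosen after seeing the data and left 0 members called in immune cells. At an unadjusted p below 0.05, 2 were then positive and 38 negative. The immune controls were the shallowest group, and the part of depth in the spread of the immune comparisons was not tested. Shares of all genes called under these alternatives are not given here. The cause of these changes was not tested.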
